A study of Mus musculus with 12 samples.

Results

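Collagen chain genes were followed in the soleus, a calf muscle rich in slow fibres, of C57BL/6 mice. Rows of the deposited count table were taken when the symbol had the form Col, a type number, the letter a and a chain number, and when at least 10 counts were reached in at least 3 libraries. Of 44 rows with such a symbol among 24539 rows in all, 36 met the count minimum, and these 36 genes are the collagen genes described here. The 12 libraries fall into 4 groups of 3: sedentary wild type (WT), sedentary knockout (KO), exercised WT and exercised KO. The WT mice carried floxed Dnmt3a alleles, the KO mice are labelled MCK-Dnmt3a KO, and all mice ate chow. Dnmt3a encodes a de novo DNA methyltransferase. The promoter of muscle creatine kinase (MCK), after which the knockout is named, drives deletion in muscle fibres, so fibroblasts, endothelium and other cells of the muscle would be expected to keep the gene. The sources used here do not give the kind or length of the exercise, the time of dissection, or the age and sex of the mice.

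Collagens are secreted proteins of triple-helical chains that carry most of the tension in connective tissue. Fibrillar collagens (types I, III, V and their relatives) form the fibrils of the endomysium, perimysium and tendon and are made mainly by fibroblasts. Type IV collagen forms the sheet-like network of the basement membrane around each muscle fibre and capillary, and type VI collagen forms beaded filaments that join the basement membrane to the fibrils. The remaining chains decorate fibrils, sit in special places such as the myotendinous junction, or span the cell membrane.

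Total counts ran from 13329547 to 15480960 per library, and all 36 collagen genes were among the 13886 genes that passed the filter for testing. Dnmt3a, the targeted gene, stood at 113 to 180 CPM (edgeR's depth-scaled count, with TMM factors) in the 6 WT libraries and at 48.6 to 60.5 CPM in the 6 KO libraries, without overlap. Slow fibre markers summed to 23005 to 35028 CPM over the 12 libraries and fast fibre markers to 32853 to 58495 CPM. In every library the fast sum was the higher. Libraries of a group are called a, b and c. The exercised libraries WT a and KO a carry 2 animal numbers each in their column names, and Alb, the main liver plasma protein, stood above 100 CPM in sedentary KO b and exercised WT b and c, so results were also computed without each of these sets. Without the libraries high in Alb, exercised WT keeps only library a, so that fit holds no spread within this group. In whole-muscle RNA, fewer cells of a type and less RNA per cell cannot be told apart.

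The 36 genes comprise 11 fibrillar chains, 5 type IV chains, 4 type VI chains, 6 fibril-associated chains (FACIT), 2 multiplexins, 2 short-chain network collagens, 3 transmembrane collagens, Col7a1 of the anchoring fibril and 2 others. The members with the fewest libraries at 10 or more counts were Col25a1 (9 to 25 counts), Col6a6 (7 to 42 counts) and Col9a2 (8 to 50 counts), each with 11 libraries. Just outside the count minimum were Col19a1 (1 to 17 counts) and Col9a1 (0 to 47 counts), which reached 10 counts in 2 libraries, and Col6a5, which reached it in 1. Col4a6, Col6a4, Col9a3, Col10a1 and Col17a1 reached it in 0.

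Levels between genes were compared per length, as CPM per kb of the gene's longest coding transcript in GENCODE M21, as mean ± SD over all 12 libraries. The type I chains led, with 154 ± 58.0 CPM per kb for Col1a1 and 136 ± 45.7 CPM per kb for Col1a2, followed by Col3a1, the single chain of type III collagen, with 94.8 ± 34.0 CPM per kb. The broadly expressed type IV chains came next, with 85.5 ± 23.1 CPM per kb for Col4a1 and 62.9 ± 15.3 CPM per kb for Col4a2, ahead of 49.7 ± 13.2 CPM per kb for Col6a1 and 47.1 ± 13.9 CPM per kb for Col6a2 of type VI. The gap between neighbours among these 7 genes was smaller than the SD of the higher one, which does not measure their order within a library. Within libraries, Col4a1 stood at 1.17 to 1.47 times the level of Col4a2, and Col1a1 at 0.947 to 1.32 times that of Col1a2. With Col15a1, a multiplexin of the basement membrane zone with 30.3 ± 8.18 CPM per kb, these 7 genes held 86.6% of the summed mean level of the 36 genes. At the other end stood Col6a6 (0.187 CPM per kb), Col25a1 (0.170 CPM per kb) and Col4a4 (0.137 CPM per kb). Fibrillar chains made up 46.9 to 60.8% of the summed collagen level of a library and type IV chains 16.2 to 25.4%. The lengths are not those the authors counted on: per kb of merged exons, Col1a1 stayed first but Col4a1 and Col4a2 ranked 2 and 3, ahead of Col1a2 and Col3a1.

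**Figure D1:**
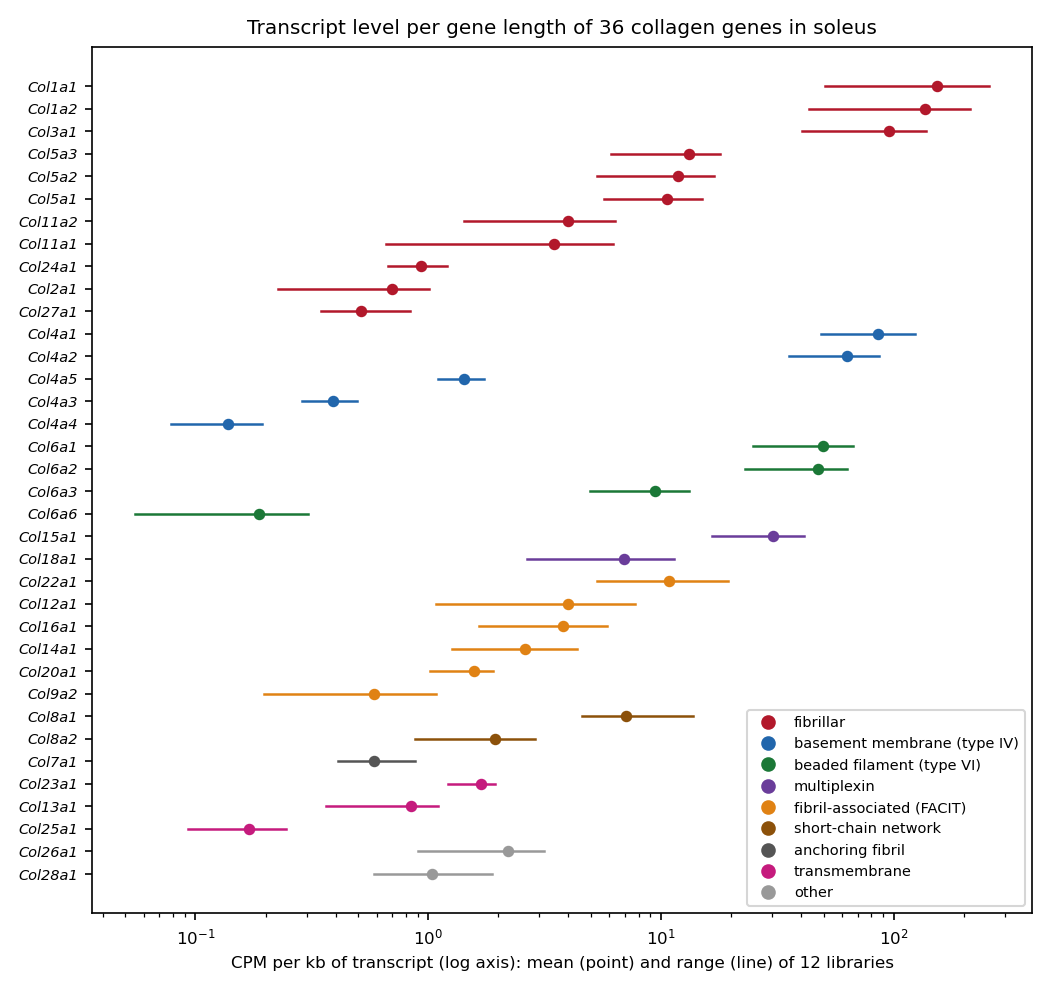
Level of each of the 36 collagen genes, grouped and coloured by structural class, on a log axis of CPM per kb of transcript. Points are means of 12 libraries and lines run from the lowest to the highest library; Col1a1 stands at 154 CPM per kb and Col4a4 at 0.137.

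Ratios of these levels were computed for some pairs of chains of one collagen and not for others. The pairs were Col1a1 to Col1a2, Col4a1 to Col4a2, Col5a1 to Col5a2, Col6a1 to Col6a2 and Col6a3 to Col6a2. In these, the ratio had an SD over the 12 libraries of 6.26 to 9.57% of its mean. That percentage does not depend on the transcript lengths, whereas a ratio and its SD do. The ratio of Col1a1 to Col1a2 was 1.12 ± 0.0961 (SD, n = 12) and ran from 0.947 in exercised WT a to 1.32 in sedentary KO b. Col4a1 to Col4a2 was 1.35 ± 0.0846 and ran from 1.17 in exercised KO a to 1.47 in exercised WT c. Col6a1 to Col6a2 was 1.07 ± 0.0687, whereas Col6a3, whose protein is the longest of the 3 main type VI chains, stood at 0.202 ± 0.0194 of Col6a2. Across collagen types, the ratio of Col3a1 to Col1a1 was 0.630 ± 0.123, an SD of 19.6% of the mean, and ran from 0.434 in exercised WT a to 0.798 in exercised KO c. No other ratio across types was computed, so these pairs do not show whether chains of one collagen vary together more closely than others.

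Exercise against rest, averaged over both genotypes, was the comparison in which collagen genes passed the test. Transcripts of Col4a2, the alpha 2 chain of basement membrane collagen, and Col6a6, a minor type VI chain, fell, and 33 of 36 collagen genes had a negative log2 fold change. By edgeR's quasi-likelihood test with Benjamini-Hochberg adjustment over the 13886 genes, these 2 genes passed the threshold of 0.05 in the lower direction, where 1.68% of all genes did. The median log2 fold change of the 36 genes was −0.40, against 0.00 (0.000338) over all tested genes, of which 49.9% were negative. At unadjusted p under 0.05, 10 of the 36 were lower (27.8%, against 13.7% of all genes) and 0 were higher. In 4 genes, Col4a1, Col4a2, Col15a1 and Col5a3, every exercised library lay below every sedentary one (11.1%, against 2.16% of all genes). Col23a1 (0.11), Col4a5 (0.10) and Col7a1 (0.02) had the 3 positive log2 fold changes, and none of these passed the test.

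Single libraries and settings moved the number of calls. With 1 library left out at a time, the count of called collagen genes ran from 0 to 9: it was 0 without any single one of sedentary WT a, b or c, sedentary KO a or b, exercised WT a or c, or exercised KO a or c, 1 without sedentary KO c, 3 without exercised WT b and 9 without exercised KO b. The share of all tested genes called lower moved in the same direction, to 0.191 to 0.871% in the fits with 0 collagen calls and to 1.39, 2.17 and 3.87% in the last 3. The count was 9 with DESeq2 (4.72% of all genes called lower), 3 with limma-voom (1.51%), 1 (Col15a1) without the 3 libraries high in Alb (0.457%), 5 with log2 Dbp (a clock-controlled gene that splits the libraries) as covariate (3.98%) and 0 without the 2 libraries of 2 animal numbers (0.553%). The median log2 fold change stayed negative in each of these fits, between −0.63 without exercised KO b and −0.27 without exercised KO c.

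**Figure D2:**
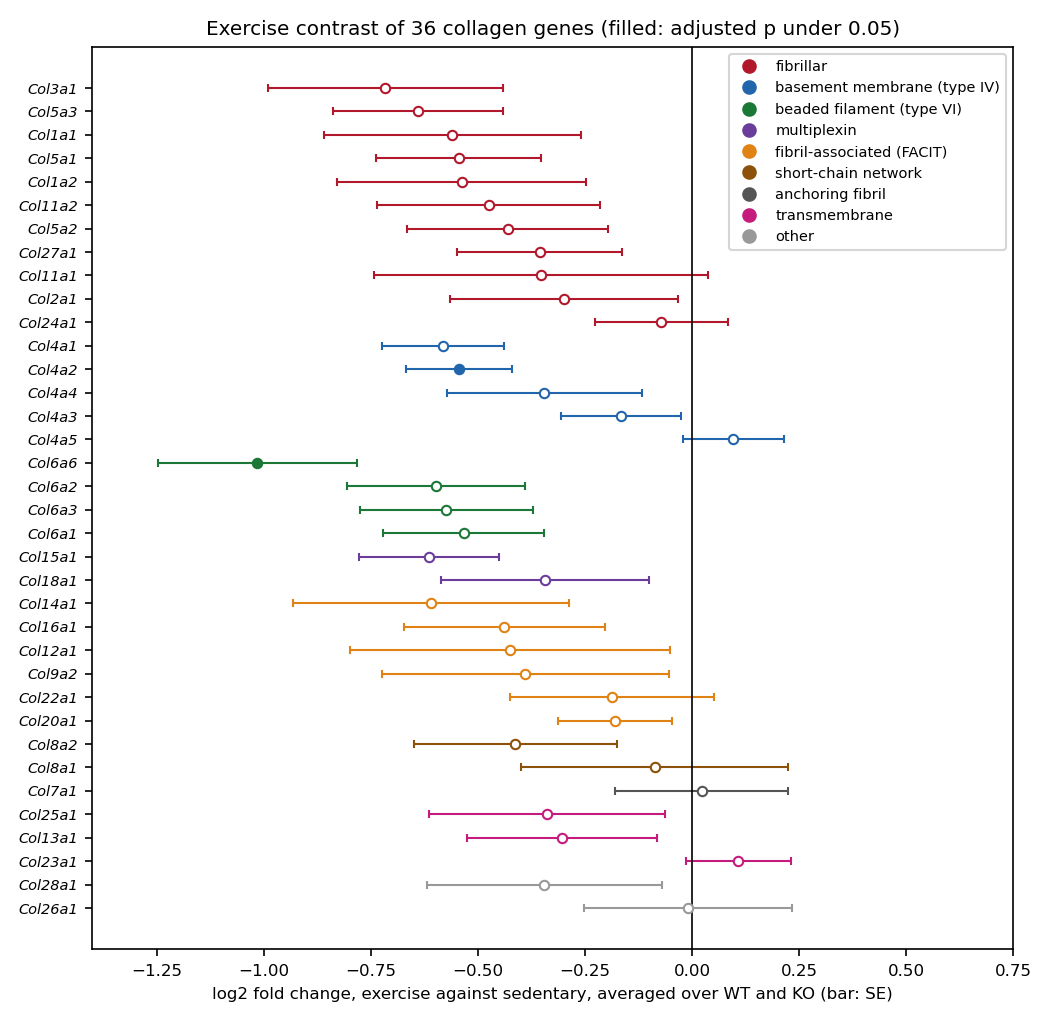
Log2 fold change of exercised against sedentary soleus averaged over WT and KO for each of the 36 collagen genes, with its standard error, by structural class; filled points have an adjusted p under 0.05. Col4a2 and Col6a6 are the filled points, and all but Col23a1, Col4a5 and Col7a1 lie left of 0.

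Of the 5 type IV chains, Col4a1 and Col4a2 had every exercised library below every sedentary one, as had 2.16% of all genes. Col4a1 and Col4a2 are divergent neighbours on chromosome 8 (mm10): Col4a1 runs on the minus strand from 11198423 to 11312826 and Col4a2 on the plus strand from 11312805 to 11449287, with annotated starts 21 bases apart, and their exons share 22 bases in GENCODE M21. The promoter windows of RefSeq (GRCm38.p6, 250 bases before to 50 after each gene's start, on the gene's own strand) are shown because this pair carries the type IV result and is read from one shared stretch. They overlap by 78 bases. Capitals mark CCAAT boxes (CCAAT), GC boxes (GGGCGG) and TATA boxes (TATAAA) on either strand. The window of Col1a2, a fibrillar chain, is shown beside them.
Col4a1, chr8:11312777-11313076, minus strand: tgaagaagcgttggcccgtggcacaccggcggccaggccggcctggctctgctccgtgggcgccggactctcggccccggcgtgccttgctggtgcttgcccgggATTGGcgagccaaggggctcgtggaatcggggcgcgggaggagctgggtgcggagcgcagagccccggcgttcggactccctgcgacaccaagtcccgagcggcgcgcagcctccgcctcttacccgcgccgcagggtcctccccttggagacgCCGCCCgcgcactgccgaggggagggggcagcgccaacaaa
Col4a2, chr8:11312555-11312854, plus strand: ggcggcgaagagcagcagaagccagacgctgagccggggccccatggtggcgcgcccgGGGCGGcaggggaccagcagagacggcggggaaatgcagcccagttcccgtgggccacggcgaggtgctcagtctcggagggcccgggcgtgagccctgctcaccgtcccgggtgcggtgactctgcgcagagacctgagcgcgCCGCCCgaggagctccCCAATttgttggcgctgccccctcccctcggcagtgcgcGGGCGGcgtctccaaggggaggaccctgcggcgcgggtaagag
Col1a2, chr6:4505368-4505667, plus strand: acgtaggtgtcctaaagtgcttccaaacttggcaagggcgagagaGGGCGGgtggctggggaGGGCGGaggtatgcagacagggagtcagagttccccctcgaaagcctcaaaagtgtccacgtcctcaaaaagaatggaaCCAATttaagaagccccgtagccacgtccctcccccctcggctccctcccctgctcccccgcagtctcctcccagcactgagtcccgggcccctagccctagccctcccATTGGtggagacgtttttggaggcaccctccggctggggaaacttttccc
None of these 3 windows holds TATAAA, and each holds at least 1 CCAAT and 1 GGGCGG. Other abundant collagen genes differ: the windows of Col3a1, Col6a1 and Col15a1, not shown, hold 0 CCAAT and 0 GGGCGG. That of Col3a1, also a fibrillar chain, holds 1 TATAAA, and those of Col6a1 and Col15a1 hold 0. Windows were given for 28 of the 36 collagen genes, 30 windows in all. GGGCGG was found in 20 of the 30 (66.7%, against 35.7% of 32851 promoter windows of the table), CCAAT in 10 (33.3%, against 37.4%) and TATAAA in 3 (10%, against 13.6%).

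Col4a1 stood at 651, 815 and 765 CPM in sedentary WT, 663, 599 and 574 in sedentary KO, 381, 544 and 557 in exercised WT and 358, 556 and 320.3 in exercised KO muscle. Each exercised library was below all 6 sedentary ones in that gene. Its log2 fold change was −0.58 (SE 0.141, adjusted p = 0.0572), just short of the threshold. Col4a2 stood at 450.4, 557 and 536 CPM in sedentary WT, 502, 423 and 421 in sedentary KO, 301, 392 and 370.2 in exercised WT and 299.6, 392 and 228 in exercised KO muscle. As for its neighbour, exercised and sedentary libraries did not overlap, and exercised KO c was the lowest. Exercise against rest gave a log2 fold change of −0.54 (SE 0.123, adjusted p = 0.0460), and it stayed negative in all 21 settings tried, with an adjusted p between 0.00194 and 0.134. Col4a2 was called in 8 of these settings. The call was lost with no filter on low counts, without the libraries high in Alb, without those of 2 animal numbers and without any single library other than exercised WT b and KO b.

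The other type IV chains, which build the specialised networks of kidney glomerulus, lung and some other basement membranes, were much lower and passed no test. Log2 fold changes were −0.17 for Col4a3, −0.34 for Col4a4 and 0.10 for Col4a5. Col4a3 and Col4a4 are also a divergent pair, on chromosome 1, as are Col4a5 and Col4a6 on the X chromosome, of which Col4a6 missed the count minimum. Summed over the 5 type IV chains, the level ran over 1117 to 1387 in sedentary WT, 1009 to 1178 in sedentary KO, 696 to 949.5 in exercised WT and 559 to 963 in exercised KO (CPM), so that exercised and sedentary libraries did not overlap. Col4a1 and Col4a2 make up nearly all of this sum (means of 744 and 514 of 1273 CPM in sedentary WT), so it restates their values. Taken singly, Col4a3, Col4a4 and Col4a5 overlapped. Of 7 endothelial markers, 5 also fell after exercise by edgeR, as did 1.68% of all genes. These were Egfl7 (−0.65), Pecam1 (−0.41), Cdh5 (−0.42), Emcn (−0.39) and Tie1 (−0.35 on the log2 scale), with adjusted p from 0.0133 to 0.0389. The summed level of the 7 markers ran over 901 to 948 in sedentary WT, 813 to 903 in sedentary KO, 644 to 732 in exercised WT and 505 to 698 in exercised KO (CPM). The part of endothelial cells in the type IV values was not tested.

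**Figure D3:**
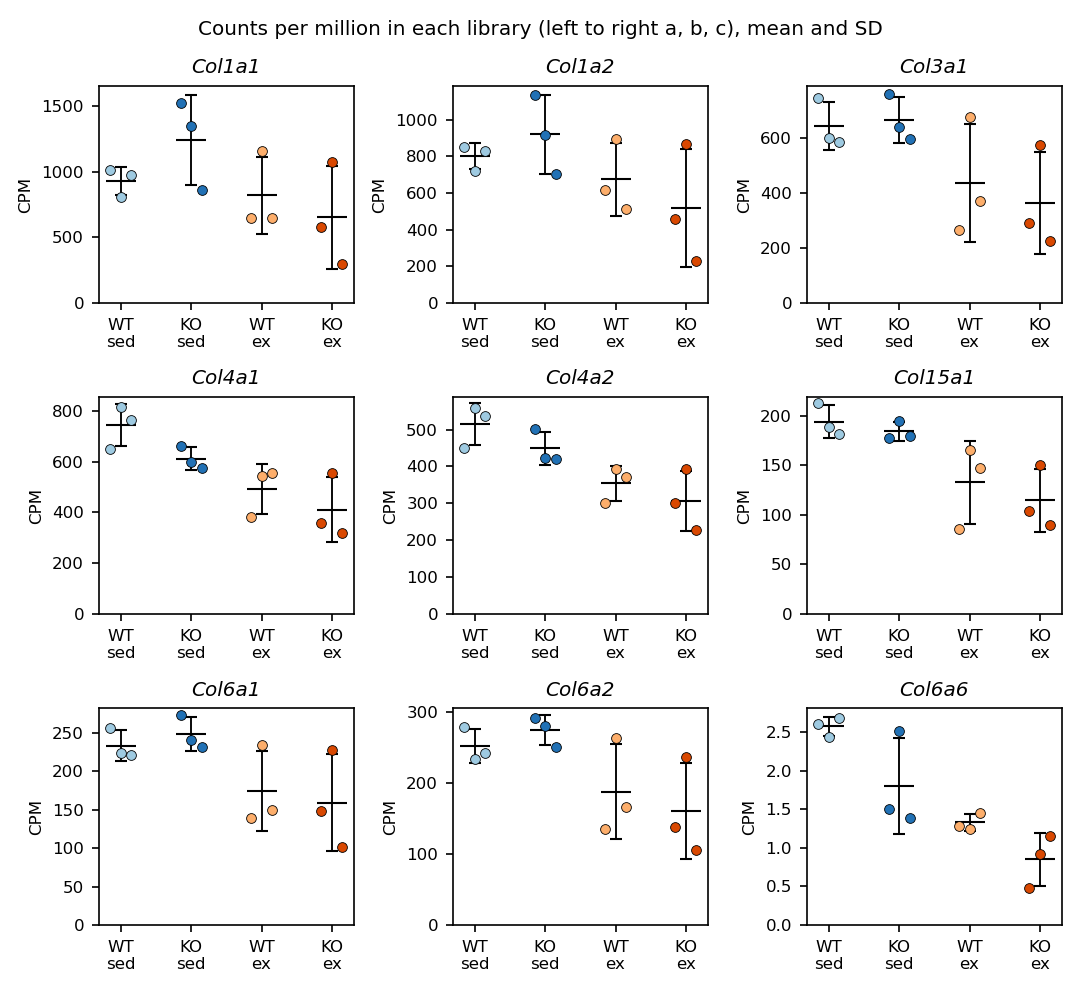
CPM in each of the 12 libraries for the collagen genes the results turn on, by group, with libraries a, b and c from left to right and bars for the mean and SD of the 3 libraries of a group. In Col4a1 and Col4a2 all exercised libraries lie below all sedentary ones, whereas in Col1a1 the groups overlap and exercised KO c is the lowest library.

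Multiplexins are basement membrane collagens that carry proteoglycan side chains. Col15a1, whose protein lies at the outer face of the muscle basement membrane, stood at 213, 189 and 181 CPM in sedentary WT, 178, 195 and 180.1 in sedentary KO, 85.3, 165 and 148 in exercised WT and 104, 151 and 89.7 in exercised KO muscle. All exercised libraries were below all sedentary ones, and the lowest was exercised WT a. The fold change on the log2 scale was −0.61 (SE 0.164, adjusted p = 0.0775), and the range over 21 settings, −0.91 to −0.46, passed the threshold in 5. Col18a1, the source of the fragment endostatin, stood at 40.5, 41.6 and 35.0 CPM in sedentary WT, 63.2, 41.5 and 38.8 in sedentary KO, 33.8, 46.8 and 32.7 in exercised WT and 31.4, 45.6 and 14.8 in exercised KO muscle. Sedentary and exercised libraries overlapped, with sedentary KO a the highest and exercised KO c the lowest. After exercise its log2 fold change was −0.34 (SE 0.242, adjusted p = 0.419).

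All 4 type VI chains were lower after exercise at unadjusted p under 0.05, as were 13.7% of all genes, with a median log2 fold change of −0.59, and 1 of them, Col6a6, fell past the adjusted threshold. Variants in the human genes of the 3 main chains cause muscular dystrophies, which is why this collagen is well studied in muscle. Col6a1 stood at 256, 224 and 221 CPM in sedentary WT, 273, 240.3 and 232 in sedentary KO, 139, 233 and 149 in exercised WT and 148, 227 and 102 in exercised KO muscle. Exercised WT b and KO b, at 233 and 227 CPM, lay within the sedentary range, and the other 4 exercised libraries lay below it. Averaged over genotypes, the log2 fold change was −0.53 (SE 0.188, adjusted p = 0.139). Col6a2, its partner on chromosome 10, stood at 279, 234 and 243 CPM in sedentary WT, 292, 281 and 251 in sedentary KO, 135, 263 and 166 in exercised WT and 139, 237 and 106 in exercised KO muscle. The pattern over libraries was that of Col6a1, with the b libraries of both exercised groups the highest of their groups. For this chain the log2 fold change was −0.60 (SE 0.208, adjusted p = 0.136), and that of Col6a3 was −0.57 (SE 0.202, adjusted p = 0.139). With DESeq2, Col6a1, Col6a2 and Col6a3 passed the threshold, as they did without exercised KO b.

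Col6a6, on the minus strand of chromosome 9 from 105687809 to 105828160 (mm10), encodes a chain related to that of Col6a3. It stood at 2.61, 2.44 and 2.68 CPM in sedentary WT, 1.51, 2.51 and 1.38 in sedentary KO, 1.29, 1.24 and 1.45 in exercised WT and 0.483, 0.915 and 1.15 in exercised KO muscle. Levels were low, with 7 to 42 counts a library, and 1 exercised library, WT c, lay above a sedentary one, KO c. The averaged contrast gave a log2 fold change of −1.01 (SE 0.231, adjusted p = 0.0452), the lowest of the 36 genes, and it was negative in all 20 settings in which the gene was tested, with an adjusted p between 0.00889 and 0.152. Col6a6 was called in 8 of these settings. Its call was lost without the libraries high in Alb, without those of 2 animal numbers and without any single library other than sedentary KO c and exercised KO b. Summed type VI levels ran over 575 to 661 in sedentary WT, 589 to 699.9 in sedentary KO, 329 to 610.2 in exercised WT and 259 to 566 in exercised KO (CPM). Unlike the type IV sum, which is nearly all Col4a1 and Col4a2, the type VI sum overlapped between exercised and sedentary libraries. The overlap came from exercised WT b alone, at 610.2 CPM. Exercised KO b, at 566 CPM, and the other exercised libraries lay below the lowest sedentary one, at 575 CPM.

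All 11 fibrillar chains had a negative log2 fold change after exercise, with a median of −0.47, but 0 passed the adjusted threshold by edgeR (1.68% of all genes fell) and 3 had an unadjusted p under 0.05 (27.3%, against 13.7% of all genes lower). With DESeq2, which called 4.72% of all genes lower, Col5a1 and Col5a3 were called, and limma-voom called 0. Some other edgeR fits called fibrillar chains too. Without exercised KO b these were Col3a1 and Col5a3 (3.87% of all genes called lower). Without exercised WT b it was Col5a1 (2.17%), and with log2 Dbp as covariate Col5a3 (3.98%). Col1a1, the alpha 1 chain of type I collagen, stood at 1009, 811 and 978 CPM in sedentary WT, 1522, 1347 and 861 in sedentary KO, 648, 1158 and 649.9 in exercised WT and 578, 1076 and 299.8 in exercised KO muscle. Exercised KO c, at 299.8 CPM, was the lowest and sedentary KO a the highest, and exercised WT b and KO b were within the sedentary range. Its log2 fold change was −0.56 (SE 0.300, adjusted p = 0.293). Col1a2, the alpha 2 chain, stood at 853, 719 and 831 CPM in sedentary WT, 1137, 919 and 705 in sedentary KO, 617, 896 and 511 in exercised WT and 459, 866 and 230.0 in exercised KO muscle. The order of libraries was close to that of Col1a1, with exercised KO c again the lowest. Exercise against rest gave a log2 fold change of −0.54 (SE 0.290, adjusted p = 0.296).

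Col3a1, the type III chain that is found with type I in the thin fibrils of the endomysium, stood at 745, 601 and 587 CPM in sedentary WT, 760.4, 639 and 597 in sedentary KO, 264, 678 and 371 in exercised WT and 290.0, 575 and 224 in exercised KO muscle. Exercised WT b was within the sedentary range, and the other 5 exercised libraries lay below every sedentary one. The fold change on the log2 scale was −0.72 (SE 0.274, adjusted p = 0.170). Type V chains, which start fibrils and limit their width, include Col5a3, which was the highest of them per kb and stood at 101, 92.6 and 99.5 CPM in sedentary WT, 90.3, 110.0 and 93.9 in sedentary KO, 37.1, 79.4 and 75.6 in exercised WT and 42.7, 83.3 and 58.6 in exercised KO muscle. Its exercised libraries all lay below the sedentary ones, and exercised WT a was the lowest. After exercise its log2 fold change was −0.64 (SE 0.199, adjusted p = 0.110), next to −0.55 (SE 0.192, adjusted p = 0.139) for Col5a1 and −0.43 (SE 0.234, adjusted p = 0.299) for Col5a2.

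The minor fibrillar chains gave wide spreads. Col11a1, a type XI chain of cartilage and developing tendon, stood at 27.9, 26.9 and 28.3 CPM in sedentary WT, 47.5, 27.0 and 21.4 in sedentary KO, 27.5, 29.8 and 17.4 in exercised WT and 23.2, 37.0 and 5.03 in exercised KO muscle. Its log2 fold change of −0.35 had an SE of 0.390, and exercised KO c, at 5.03 CPM, was the lowest. Log2 fold changes were −0.47 for Col11a2, −0.36 for Col27a1, −0.30 for Col2a1, the main chain of cartilage, and −0.07 for Col24a1. The fibrillar sum ran over 2480.2 to 2995 in sedentary WT, 2483 to 3848 in sedentary KO, 1738 to 3083 in exercised WT and 919 to 2865 in exercised KO (CPM).

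The sums of fibroblast and tendon cell markers are given beside the fibrillar sum. Of 8 fibroblast and fibro-adipogenic progenitor markers, 3 fell after exercise (Pdgfra −0.53, Smoc2 −0.40 and Cd34 −0.56 on the log2 scale, adjusted p from 0.0406 to 0.0416 by edgeR), as did 1.68% of all genes. The list summed to 475 to 564 in sedentary WT, 499 to 529 in sedentary KO, 373 to 509 in exercised WT and 315 to 454 in exercised KO (CPM). Of 8 tendon cell markers 0 passed the test (edgeR; 1 at unadjusted p under 0.05) although all 8 had a negative log2 fold change, and the list summed to 578 to 847 in sedentary WT, 622 to 965 in sedentary KO, 401 to 786 in exercised WT and 187 to 747 in exercised KO (CPM). Exercised KO c held the lowest tendon sum, at 187 CPM, and sedentary KO a the highest, at 965 CPM, the same libraries as at the ends of Col1a1. Of 6 cartilage and bone markers, Sox9, a transcription factor of cartilage, stood at 10.2 to 56.8 CPM, while Acan, Matn3, Ibsp, Bglap and Sp7 reached at most 11, 11, 8, 1 and 6 counts in any library. The 2 tested members, Sox9 and Matn3, summed to 11.9 to 45.0 in sedentary WT, 10.6 to 57.1 in sedentary KO, 21.6 to 43.0 in exercised WT and 12.4 to 49.7 in exercised KO (CPM), and 0 of them passed the exercise test by edgeR, also at unadjusted p under 0.05. The part of tendon or fibroblast RNA in the fibrillar values was not tested.

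Fibril-associated collagens lie on the surface of fibrils and link them to neighbours. All 6 had a negative log2 fold change after exercise, with a median of −0.41, and 0 passed the test, also at unadjusted p under 0.05. Col22a1, the chain of the myotendinous junction and the most abundant of them, stood at 92.8, 84.6 and 79.0 CPM in sedentary WT, 171, 102 and 82.3 in sedentary KO, 87.3, 104 and 75.8 in exercised WT and 99.2, 117 and 46.5 in exercised KO muscle. Sedentary KO a was the highest and exercised KO c the lowest, and the groups otherwise overlapped. Averaged over genotypes, the log2 fold change was −0.19 (SE 0.239, adjusted p = 0.668). Col12a1, found on type I fibrils of tendon and muscle, stood at 52.5, 42.9 and 43.1 CPM in sedentary WT, 89.0, 50.6 and 39.1 in sedentary KO, 35.5, 62.4 and 27.3 in exercised WT and 33.8, 62.9 and 12.4 in exercised KO muscle. Exercised WT b and KO b were above 5 of the 6 sedentary libraries. For this chain the log2 fold change was −0.43 (SE 0.374, adjusted p = 0.519). Col20a1 stood at 9.51, 7.97 and 9.38 CPM in sedentary WT, 7.73, 7.27 and 8.04 in sedentary KO, 9.34, 6.15 and 9.34 in exercised WT and 7.60, 6.73 and 5.10 in exercised KO muscle. The KO libraries reached 8.04 CPM at most and 5 of the 6 WT libraries 7.97 CPM or more. Its log2 fold change after exercise was −0.18 (SE 0.132, adjusted p = 0.434). Those of Col14a1, Col16a1 and Col9a2 were −0.61, −0.44 and −0.39.

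Col8a1 and Col8a2 form the hexagonal networks found around vessels and in the cornea. Col8a1 stood at 37.4, 30.8 and 27.9 CPM in sedentary WT, 67.8, 28.8 and 29.1 in sedentary KO, 26.3, 69.8 and 27.0 in exercised WT and 28.9, 34.6 and 23.3 in exercised KO muscle. Exercised WT b and sedentary KO a were the highest, each far above the other libraries of its group. The averaged contrast gave a log2 fold change of −0.09 (SE 0.311, adjusted p = 0.895), and its sign changed in 4 of 21 settings. Col8a2 stood at 11.6, 7.05 and 10.2 CPM in sedentary WT, 12.4, 8.30 and 7.90 in sedentary KO, 7.24, 11.3 and 5.67 in exercised WT and 6.28, 9.02 and 3.81 in exercised KO muscle, and its log2 fold change was −0.41 (SE 0.236, adjusted p = 0.314). The single anchoring fibril gene, Col7a1, known from skin, stood at 3.79 to 8.11 CPM with a log2 fold change of 0.02.

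Transmembrane collagens are anchored in the cell membrane, and Col13a1 is known from the neuromuscular junction. Col13a1 stood at 3.04, 3.10 and 3.21 CPM in sedentary WT, 2.77, 3.35 and 2.31 in sedentary KO, 2.58, 2.81 and 2.28 in exercised WT and 2.07, 3.46 and 1.15 in exercised KO muscle. Its log2 fold change was −0.30 (SE 0.221, adjusted p = 0.429). Col23a1 stood at 10.5, 8.89 and 9.71 CPM in sedentary WT, 6.85, 9.46 and 9.42 in sedentary KO, 10.6, 7.26 and 10.9 in exercised WT and 10.4, 9.61 and 10.3 in exercised KO muscle. It had the highest log2 fold change of the 36 genes, 0.11 (SE 0.122, adjusted p = 0.621), and the sign was positive in all 21 settings. Within KO, its exercised libraries all lay above the sedentary ones (as in 10.3% of all genes), whereas in WT they overlapped. Col25a1, known for its part in motor innervation, gave −0.34.

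Col26a1 and Col28a1 belong to no larger class. Col26a1 stood at 7.39, 6.45 and 4.55 CPM in sedentary WT, 6.79, 6.95 and 4.81 in sedentary KO, 6.92, 6.68 and 6.09 in exercised WT and 8.77, 5.82 and 2.52 in exercised KO muscle. Its groups overlapped, with a log2 fold change of −0.01 (SE 0.242, adjusted p = 0.985) whose sign was positive in 7 of 21 settings. Col28a1, known from peripheral nerve, stood at 6.09, 4.87 and 2.48 CPM in sedentary WT, 4.46, 7.98 and 3.43 in sedentary KO, 5.79, 3.60 and 3.53 in exercised WT and 3.04, 4.64 and 2.59 in exercised KO muscle. Exercise against rest gave a log2 fold change of −0.35 (SE 0.275, adjusted p = 0.471), and it turned to 0.0848 without the 3 libraries high in Alb.

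The same ordering of libraries ran through many members. Exercised KO c was the lowest of 12 libraries for 25 of the 36 genes, against 16.1% of all tested genes, including 8 of 11 fibrillar and 4 of 5 type IV chains. Sedentary KO a was the highest for 16 genes, against 10.2% of all genes, including 7 of 11 fibrillar and 0 of 5 type IV chains. Of the 5 type IV chains, 2 peaked in sedentary WT b and 2 in sedentary WT c. Collagen genes also varied more within groups than most genes: the median within-group SD of log2 CPM was 0.412 for the 36 genes, 0.508 for fibrillar and 0.245 for type IV chains, against 0.196 over all tested genes.

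**Figure D4:**
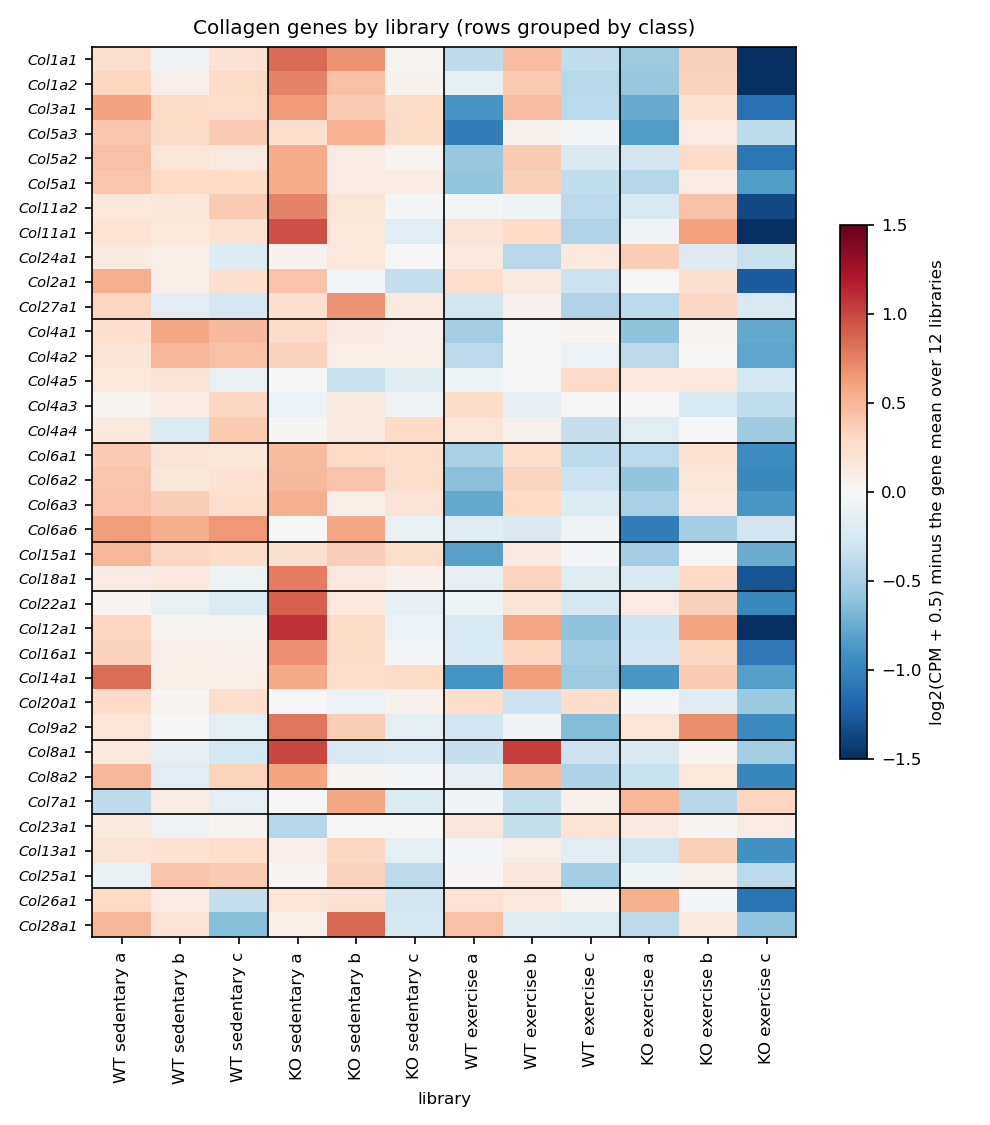
Log2 CPM of each collagen gene (rows, by structural class) in each library (columns, by group) relative to the gene's mean over 12 libraries, with the colour scale limited to −1.5 and 1.5. The exercised KO c column is the lowest for 25 of 36 genes, and sedentary KO a is the highest for 7 of 11 fibrillar and 0 of 5 type IV chains.

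Within each genotype the exercise contrast gave the same sign for most members but 0 calls. In WT, the median log2 fold change was −0.26, and 32 of 36 genes were negative (49% of all genes were). With edgeR, 0 collagen genes passed the adjusted threshold (0.0216% of all genes did), and 4 had an unadjusted p under 0.05, all lower (11.1%, against 5.42%). DESeq2 and limma-voom also called 0 collagen genes, where they called 122 and 1 of the 13886 tested genes. In 7 genes the exercised WT libraries were all below the sedentary WT libraries (19.4%, against 8.68%): Col11a2, Col13a1, Col15a1, Col4a1, Col4a2, Col5a3 and Col6a6. In KO, the median was −0.55 and 33 of 36 were negative (51.5% of all genes were). Again 0 collagen genes passed the adjusted threshold by edgeR, DESeq2 or limma-voom. Of all genes, 0% did by edgeR, 359 of 13886 by DESeq2 and 0 by limma-voom. By edgeR, 9 collagen genes had an unadjusted p under 0.05, all lower (25.0%, against 11.2%). Exercised libraries all lay below the sedentary ones in 10 collagen genes (27.8%, against 12.5%). These were Col15a1, Col3a1, Col4a1, Col4a2, Col4a4, Col5a1, Col5a3, Col6a1, Col6a2 and Col6a6. The KO median was −0.90 without exercised KO b, −0.31 without exercised KO c and −0.36 without sedentary KO a, and the WT median was −0.51 without exercised WT b and −0.14 without exercised WT c.

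**Figure D5:**
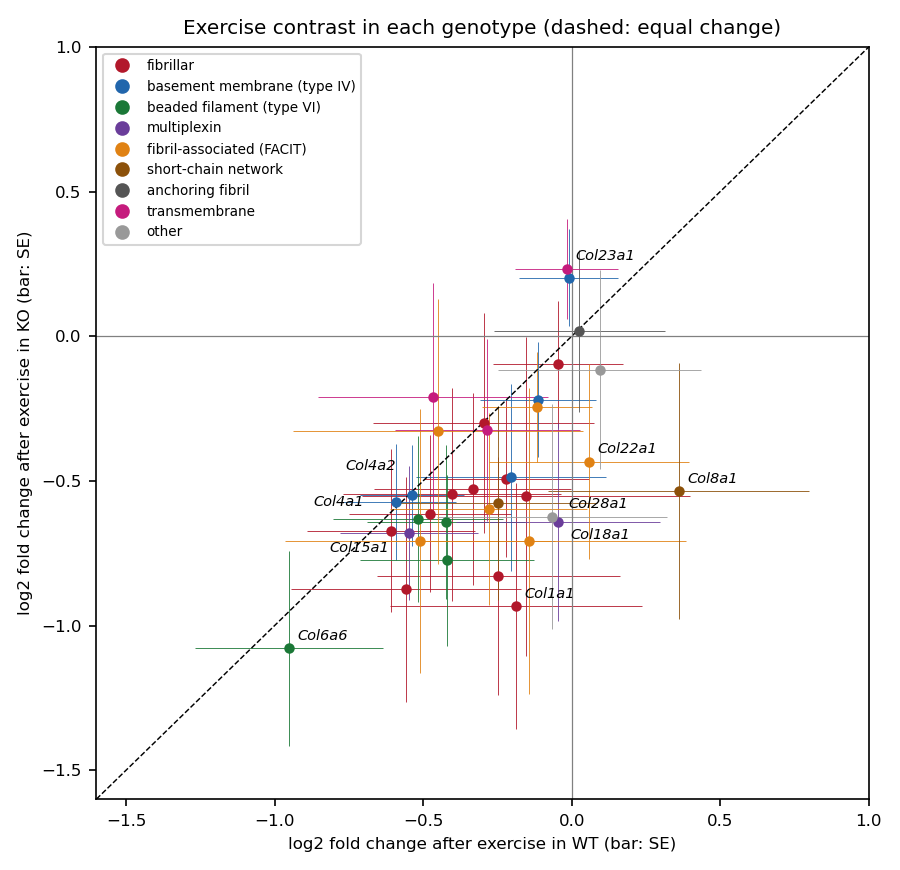
Log2 fold change after exercise in WT (horizontal) against KO (vertical) for the 36 collagen genes, coloured by class, with standard errors as bars and equality as a dashed line. The median is −0.26 in WT and −0.55 in KO, and Col8a1 and Col1a1 lie farthest below the line.

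Whether the exercise response differed between genotypes was tested as the interaction. With edgeR, DESeq2 and limma-voom, 0 of 36 collagen genes passed the adjusted threshold. Of all genes, 0% did by edgeR, 22 of 13886 by DESeq2, all lower, and 0 by limma-voom. By edgeR, 0 collagen genes had an unadjusted p under 0.05, where 3.1% of all genes did in either direction. The largest differences, KO response minus WT response on the log2 scale, were −0.90 for Col8a1, with a 95% interval from −2.33 to 0.54, and −0.74 for Col1a1, with an interval from −2.13 to 0.64. For Col4a1 the difference was 0.02, with an interval from −0.63 to 0.67. These intervals use the 8 residual degrees of freedom and an SE taken back from the test's F statistic. The test itself adds prior degrees of freedom (median 4.45), so the intervals are somewhat wider than its p-values imply. They leave room for sizeable differences either way. The median over the 36 genes was −0.17 with 31 negative (52.3% of all genes were). This lean changed with the libraries included: 17 genes were negative without exercised KO c, 19 without exercised WT b and 17 without the 3 libraries high in Alb, with medians of 0.01, −0.04 and 0.04. The last fit keeps only library a of exercised WT. Without exercised KO b the median was −0.48 with 31 negative.

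In KO against WT, 0 collagen genes passed the adjusted threshold. Averaged over both conditions, 0 of 36 passed by edgeR (0.0576% of all genes did), by DESeq2 (33 of 13886 genes did) and by limma-voom (7 did). By edgeR, 1 collagen gene had an unadjusted p under 0.05 (4.5% of all genes did). That gene was Col6a6, lower in KO with a log2 fold change of −0.58 (unadjusted p = 0.0275, adjusted p = 1.00). The next were Col20a1 with −0.28 (unadjusted p = 0.0518) and Col4a1 with −0.27 (unadjusted p = 0.0791). All 5 type IV chains were lower in KO on average, with a median of −0.20, while fibrillar chains split into 6 lower and 5 higher with a median of −0.03, and 26 of the 36 genes were negative (52.2% of all genes were). All 7 endothelial markers were lower in KO as well, with a median of −0.17 (3 at unadjusted p under 0.05), and so were all 7 smooth muscle and pericyte markers, with a median of −0.16 (1 at unadjusted p under 0.05), while 0 of either list passed the adjusted threshold by edgeR. Their part in the type IV values was not tested. At rest the median over the 36 genes was 0.02 with 15 negative (49.3% of all genes were), and after exercise −0.20 with 31 negative (53.2% of all genes were). In each of these contrasts 0 collagen genes passed by any of the 3 tools and 0 had an unadjusted p under 0.05 by edgeR. Of all genes at rest, 0.0288% passed the adjusted threshold by edgeR and 4.83% the unadjusted one. After exercise these shares were 0.0216% and 3.38%. DESeq2 called 20 of the 13886 genes at rest and 9 after exercise, and limma-voom 3 in each. The leans in sign, too, changed with the libraries included. After exercise, 15 of the 36 genes were negative without exercised KO c, 18 without exercised WT b and 17 without the libraries high in Alb, against 32, with a median of −0.52, without exercised KO b. For the average over both conditions the number negative was 17 without exercised KO c, 16 without exercised WT b and 17 without the libraries high in Alb, against 31 without exercised KO b. At rest it was 23 without sedentary KO a.

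Other genes of the collagen pathway passed the test in 1 case. Of 30 genes for synthesis and processing (prolyl and lysyl hydroxylases, chaperones, procollagen proteases and lysyl oxidases), 0 were called in the averaged exercise contrast, 22 were lower and the median log2 fold change was −0.23 (7 lower and 1 higher at unadjusted p under 0.05). Over all tested genes 49.9% had a negative change and 13.7% were lower at unadjusted p under 0.05. Of 15 fibril-associated proteoglycans and glycoproteins, such as Dcn and Lum, 0 were called and 14 were lower, with a median of −0.37 (4 lower at unadjusted p under 0.05). Of 13 tested turnover genes (metalloproteinases, their inhibitors, Ctsk and others) 0 were called, with a median of −0.40 (4 lower, 1 higher), and of 9 tested collagen receptors 0, with a median of −0.21 (3 lower).

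Among 15 TGF-beta signalling genes, which regulate collagen transcription, Tgfb2 fell, as did 1.68% of all genes, and the list's median was −0.03. Tgfb2, a TGF-beta ligand, stood at 32.4, 38.7 and 41.6 CPM in sedentary WT, 35.6, 44.6 and 34.6 in sedentary KO, 30.8, 30.7 and 31.9 in exercised WT and 30.3, 27.4 and 23.5 in exercised KO muscle. The fold change on the log2 scale was −0.38 (SE 0.0895, adjusted p = 0.0465) by edgeR. Whether this call and those of the marker lists held with fewer libraries or another tool was not tested. In the averaged genotype contrast 0 genes of these 5 lists were called by edgeR.

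Marker lists of other cells gave the following sums after the same contrast. Of 7 smooth muscle and pericyte markers, Pdgfrb fell (−0.49, adjusted p = 0.0389 by edgeR), as did 1.68% of all genes. The list summed to 1089 to 1145 in sedentary WT, 928 to 949 in sedentary KO, 884 to 1109.6 in exercised WT and 827 to 991 in exercised KO (CPM). With edgeR, 0 of 6 macrophage, 5 Schwann cell, 5 adipocyte, 6 liver and 4 satellite cell markers and 0 of 6 slow and 6 fast fibre markers were called. At unadjusted p under 0.05 all 6 macrophage markers were lower, as were 13.7% of all genes. At that threshold 5 slow fibre markers were higher, as were 1271 of the 13886 tested genes. Macrophage markers summed to 92.5 to 149 in sedentary WT, 146 to 465 in sedentary KO, 73.9 to 122 in exercised WT and 62.6 to 121 in exercised KO (CPM), Schwann cell markers to 109 to 670.1 in sedentary WT, 117 to 762 in sedentary KO, 108 to 162 in exercised WT and 103 to 359 in exercised KO (CPM) and adipocyte markers to 328 to 614 in sedentary WT, 430.3 to 571 in sedentary KO, 318 to 436 in exercised WT and 257 to 413 in exercised KO (CPM). The averaged contrast joined opposite liver changes after exercise, with a median log2 fold change of 6.11 in WT and −5.45 in KO. By edgeR, 6 liver markers were higher in WT and 5 lower in KO at unadjusted p under 0.05, and 0 were called. Of the 13886 tested genes, 553 were higher in WT and 1557 lower in KO at that threshold. The liver sum was 448 in sedentary KO b, 296 in exercised WT b, 274 in exercised WT c and at most 34.01 elsewhere (CPM). The part of these cells in the collagen values was not tested.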

How the data were processed

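Gene counts from 12 soleus libraries were analysed, 3 in each of 4 groups, and each table column was mapped to its group only, since the animal numbers in its name match no sample label. Libraries are named in column order. The authors deposited raw counts per gene, per the file headers; STAR, featureCounts and mm10 are named in the submitters' processing notes, with no versions. A further 12 columns, with a normalized value per sample, were left out. The sources used here name neither the annotation nor the strand setting. According to the design text each group had 3 mice, and p-values measure the spread between these libraries.

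Genes were filtered with filterByExpr (minimum count 10, 13886 kept) and fitted with edgeR 4.0.16 in R 4.3.3: TMM factors, 1 mean per group over all 12 libraries, glmQLFit (robust) and glmQLFTest for 7 contrasts, Benjamini-Hochberg adjustment over all tested genes, threshold 0.05. CPM is TMM-scaled, and CPM per kb uses transcript lengths of GENCODE M21, a choice made after the files were seen because no length of the annotation used for counting is given. Each SE is the absolute log2 fold change divided by the square root of the test's F statistic. The test was run on simulated data first. Replicates differed beyond sampling noise (chi-square per gene 8.73 to 51.9), and 0 collagen genes shared all counts with another row. Alternatives were other scaling factors and filters, DESeq2 1.42.0, limma-voom (limma 3.58.1), fewer groups or libraries, and Dbp as covariate.

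Values in every library are given for collagen genes called in any contrast, the 2 of highest mean CPM in each class of at least 2 members, and the 3 of smallest unadjusted p in the averaged exercise and genotype contrasts. Col3a1, Col5a3 and Col11a1 were added after their values were seen. Pathway genes are named where called. The members and lists, among them 5 pathway lists and 12 marker lists, were chosen with earlier results of these data known. Promoter sequences are from RefSeq.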

Additional observations from a re-analysis of the deposited data

How the results depend on the processing

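Over the alternatives, all counts of called collagen genes in the 6 contrasts other than the averaged exercise effect stayed at 0. In that contrast the count of 2 became 1 with no filter on low counts, 1 with a minimum count of 50, 1 without the 3 libraries high in Alb, 5 with Dbp as covariate, 9 with DESeq2 and 0 without the 2 libraries of 2 animal numbers, an alternative chosen after seeing the data. Leaving out 1 library at a time gave counts from 0 to 9. The share of all genes called lower ran from 0.191% to 4.72% over these alternatives, against 1.68%. The cause was not tested. The log2 fold change of Col26a1, −0.01, became 0.0764 without the libraries high in Alb and ran from −0.226 to 0.167 with 1 library left out. That of Col8a1 became 0.0322 without the libraries of 2 animal numbers and ran from −0.399 to 0.184 with 1 library left out, and that of Col28a1 became 0.0848 without the libraries high in Alb. No paired analysis was possible because the count columns carry animal numbers that match no replicate number of the labels. With 3 libraries a group and a median within-group SD of 0.412 (log2) for collagen genes, moderate differences could not be separated from the spread between libraries, and Col6a6 rests on 7 to 42 counts a library.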
